A study of Mus musculus with 7 samples.

Results

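The 10 genes described here code for RNA-binding proteins that shape splicing and messenger RNA in neurons: Rbfox1, Rbfox2, Rbfox3, Nova1, Nova2, Ptbp1, Ptbp2, Elavl2, Elavl3 and Elavl4. They are 10 of 23413 gene symbols in a single-cell RNA sequencing series of the embryonic mouse cortex. The members were chosen by name, as a functional family around Rbfox1. Rbfox1 itself had been singled out in earlier work on these data because its level was lower in glutamatergic and upper-layer neurons of mutants. Every value of the 10 genes between mutants and controls is therefore a description, and no p-value is given for it.

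Rbfox proteins bind UGCAUG elements near alternative exons and switch on or off neuronal exons, and Rbfox3 is the antigen known as NeuN. Nova1 and Nova2 are neuronal splicing factors that were found as targets of paraneoplastic antibodies. Ptbp1 represses neuronal exons in progenitors and other non-neuronal cells, and its replacement by the paralog Ptbp2 during neurogenesis is a textbook example of a splicing switch. Elavl2, Elavl3 and Elavl4 (HuB, HuC and HuD) are the neuronal Hu proteins, which stabilise messages rich in AU elements and also act on splicing.

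Cortices were taken at e18.5 (embryonic days) from 7 embryos of a single litter and profiled on Seq-Well, a nanowell platform that counts unique molecular identifiers (UMIs) at the 3′ ends of transcripts. The 4 mutants (replicates 10, 11, 12 and 17) were Emx1CreERT2;Ash1lfl/fl, and the 3 controls (replicates 14, 15 and 16) were Ash1lfl/fl without the Cre. All embryos carried the floxed alleles and were exposed to the tamoxifen given to the dam (100 mg/kg at e10.5), so tamoxifen and the floxed allele are shared while the Cre itself differs with the mutation. The Emx1 promoter drives the Cre in dorsal telencephalic progenitors, so cortical interneurons, which come from the ventral telencephalon, are outside the lineage in which deletion is targeted.

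The tables held 50191 barcodes and 62753750 UMIs. Those with 500 or more detected genes, no more than 10% of whose UMIs were mitochondrial, numbered 23005, from 2114 to 4285 per embryo, with median depths of 1242 to 2133 UMIs. Of the barcode sequences kept, 24 occurred in more than 1 library (62 barcodes). Levels are given as UMIs per 1000000 UMIs of the same gate in the same embryo (CPM).

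Ash1l, the targeted gene, stood at 156, 157, 170 and 121 CPM over all kept barcodes of the mutants 10, 11, 12 and 17 and at 162, 217 and 206 CPM in the controls 14, 15 and 16. The groups overlapped through mutant 12 and control 14. In glutamatergic neurons the 4 mutants (117 to 153 CPM) lay narrowly below the 3 controls (154 to 210 CPM). Of all genes with at least 70 UMIs, 5.51% did so there. Among their subsets the Ash1l groups were apart in upper-layer neurons (122 to 151 against 154 to 211 CPM). They overlapped in deep-layer neurons (87.1 to 159 against 157 to 214 CPM) and in those of neither layer (129 to 155 against 151 to 200 CPM). In interneurons they overlapped too (182 to 228 against 183 to 320 CPM). The part of Ash1l that is flanked by loxP sites is not given in the sources used here, and UMIs from an undeleted 3′ end would not report the deletion.

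In the GENCODE M21 annotation of mm10, Rbfox1 spans chr16:5885355-7411526 on the plus strand, the longest locus of the 10. Rbfox2 lies at chr15:77078990-77307004 and Rbfox3 at chr11:118489762-118911597, both on the minus strand. Nova1 lies at chr12:46694517-46818929 (minus) and Nova2 at chr7:18925888-18965319 (plus). Ptbp1 lies at chr10:79854427-79864771 (plus) and Ptbp2 at chr3:119718742-119784466 (minus). The Hu genes are all on minus strands, Elavl2 at chr4:91250763-91400785, Elavl3 at chr9:22015005-22052023 and Elavl4 at chr4:110203722-110351909. Whether the counting used strand is not given in the sources used here. The lincRNA Gm26821 shares 31.7% of the exonic bases of Nova2 on the opposite strand, and Ptbp1 shares up to 9.22% with each of 3 opposite-strand genes, so these 2 members are less certain as single genes. On the same strand Nova1 shares 3.54% of its exonic bases with Gm33869 and Elavl3 shares 3.72% with Gm49318, which counting by strand would not separate.

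The promoters of 3 members are shown because they belong to the strongest rise, a rise shared by the Hu family and the strongest fall between progenitors and neurons. Each runs from 250 bases before to 50 after a RefSeq start (GRCm38.p6), and capitals mark the E-boxes CAGCTG and CAGATG (searched on both strands, the second also as CATCTG), short elements bound by proneural basic helix-loop-helix factors. Rbfox1 has 2 starts in the table, a distal one at chr16:5884543-5884842 and an internal one at chr16:7069585-7069884, both on the plus strand. The windows of Ptbp1 and Elavl3 are chr10:79854182-79854481 (plus) and chr9:22051974-22052273 (minus).
Rbfox1 distal: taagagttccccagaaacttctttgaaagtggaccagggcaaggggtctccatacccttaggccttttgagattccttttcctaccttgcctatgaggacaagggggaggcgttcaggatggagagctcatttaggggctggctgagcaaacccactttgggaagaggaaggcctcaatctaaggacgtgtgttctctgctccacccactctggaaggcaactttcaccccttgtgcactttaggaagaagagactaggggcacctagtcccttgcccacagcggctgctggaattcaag
Rbfox1 internal: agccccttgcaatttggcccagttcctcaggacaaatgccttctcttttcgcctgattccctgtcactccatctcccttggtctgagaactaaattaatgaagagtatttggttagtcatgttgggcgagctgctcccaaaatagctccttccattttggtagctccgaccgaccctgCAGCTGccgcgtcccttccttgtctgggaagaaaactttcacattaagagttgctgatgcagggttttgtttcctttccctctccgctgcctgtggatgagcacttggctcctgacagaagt
Ptbp1: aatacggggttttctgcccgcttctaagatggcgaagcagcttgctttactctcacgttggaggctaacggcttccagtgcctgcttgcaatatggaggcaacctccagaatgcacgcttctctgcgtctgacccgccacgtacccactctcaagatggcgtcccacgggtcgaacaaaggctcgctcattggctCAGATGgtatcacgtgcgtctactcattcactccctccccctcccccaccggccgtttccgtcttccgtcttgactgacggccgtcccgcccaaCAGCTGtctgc
Elavl3: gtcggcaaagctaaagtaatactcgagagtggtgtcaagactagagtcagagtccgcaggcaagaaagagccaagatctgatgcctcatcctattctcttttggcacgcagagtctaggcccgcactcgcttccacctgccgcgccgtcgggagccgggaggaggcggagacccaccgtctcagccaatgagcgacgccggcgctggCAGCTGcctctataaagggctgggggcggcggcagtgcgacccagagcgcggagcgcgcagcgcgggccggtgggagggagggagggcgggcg
The distal Rbfox1 window held neither element and the internal one held 1 CAGCTG. Elavl3 held 1 CAGCTG upstream of its start, and Ptbp1, which falls in neurons, held both elements. Of all 32851 windows in the table, 16.3% held CAGCTG, 17.2% held CAGATG and 30.6% held either. The table has windows for 9 of the 10 members (none for Rbfox2), 18 in all with several that overlap, and 10 of the 18 held either element. CpG dinucleotides numbered 3 and 7 in the Rbfox1 windows, 22 in Ptbp1 and 29 in Elavl3, against a median of 7 over all windows. A match in these letters is a description and not a binding site.

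Cells were sorted into types by marker genes. A barcode went to the class of which it had the most distinct markers, at least 3, with no tie, and none of the 10 members was a marker. The gates held 3531 radial glia, 466 intermediate progenitors, 11343 glutamatergic neurons, 1543 interneurons and 243 Cajal-Retzius barcodes. Within the glutamatergic gate, 6333 barcodes had an upper-layer majority, 2677 a deep-layer majority and 2333 neither. Among the top 10 genes of each of these 5 gates were 5 to 9 of its own markers and 0 of another class. The gating itself used these markers and favours this outcome, so it is no separate check of the gates. A total of 17760 barcodes (77.2%) were placed, 3756 of them (21.1%) at the minimum of 3 markers and 3095 (17.4%) by a margin of 1.

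Glutamatergic markers were also counted in the other gates. The 16 glutamatergic markers summed to a pooled 4880 CPM in the glutamatergic gate, 1347 CPM in radial glia and 1441 CPM in 134 endothelial, microglial and mural barcodes, which should lack them. The radial glia gate thus held 22.7% to 34.8% of the neuronal level of these markers per embryo. For a member near that share in radial glia, expression there and such background cannot be told apart.

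Between radial glia and glutamatergic neurons, all 10 members differed: 8 rose and 2 fell in neurons (edgeR quasi-likelihood test with the embryo as a block, Benjamini-Hochberg adjusted p under 0.05). The background was high, since 66.2% of 10948 genes tested were called. The median log2 fold change of the 10 was 1.10, against 0.013 over all genes tested.

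**Figure D1:**
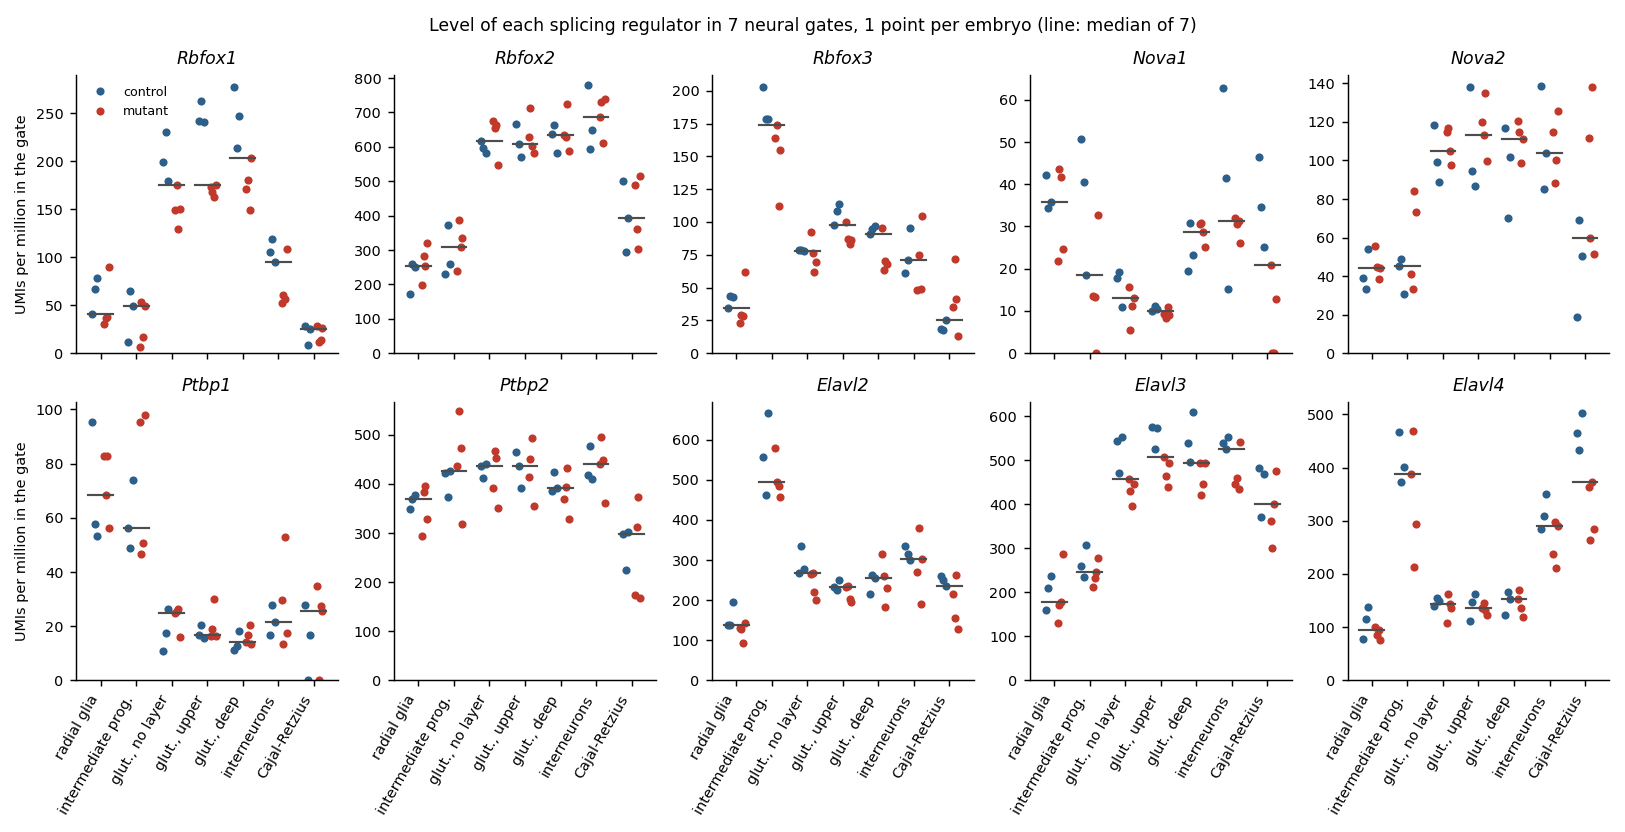
Level of each of the 10 genes (CPM of the gate, each y axis from 0) in 7 marker gates, with 1 point per embryo (blue, 3 controls; red, 4 mutants) and a line at the median of 7. Rbfox1 is high in the 3 glutamatergic gates, Rbfox3, Elavl2 and Elavl4 have their highest median in intermediate progenitors, and Ptbp1 is highest in radial glia and intermediate progenitors.

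Rbfox1 rose 3.87-fold from radial glia to glutamatergic neurons (log2 fold change 1.95, SE 0.13, adjusted p = 2.7e-11). Its level in radial glia was 30.9, 36.6, 37.7 and 90.3 CPM in the mutants 10, 11, 12 and 17 and 41.0, 67.1 and 77.9 CPM in the controls 14, 15 and 16. In glutamatergic neurons the 7 embryos ranged from 153 to 246 CPM, so that each was above every radial glia sum. Mutant 17 was the highest of the radial glia values, and its radial glia also had the highest sum of the 16 glutamatergic markers (1636 CPM). The Rbfox1 level in radial glia was 24.7% of that in neurons in the median embryo (16.7% to 50.4%), where the glutamatergic markers stood at 22.7% to 34.8%. In the non-neural barcodes it was 36.3 CPM (95% Poisson interval 18.1 to 64.9, counting error only) and so beside the 3 lowest radial glia values.

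With each barcode thinned to 1000 UMIs, 16.9% of glutamatergic barcodes had an Rbfox1 UMI, against 5.05% of radial glia, 2.81% of intermediate progenitors, 6.89% of interneurons and 4.85% of the non-neural barcodes. Thinning left out 2044 glutamatergic, 938 radial glia, 81 intermediate progenitor, 382 interneuron and 29 non-neural barcodes. Unthinned, the shares were 30.3%, 8.64%, 6.44%, 11.5% and 6.72%, at median depths of 1726, 1407, 1668, 1395 and 1816 UMIs. After thinning to 1000 UMIs, the share in radial glia was close to that of the non-neural barcodes, which rested on 105 barcodes. Per embryo the non-neural share was 3.82% ± 1.83 (SD, n = 3) and that of intermediate progenitors 2.86% ± 2.26 (SD, n = 7), within these spreads. Thinned to 700 UMIs, the pooled shares were 3.81% in radial glia, 2.12% in intermediate progenitors and 2.72% in the non-neural barcodes. The pooled Rbfox1 level was 55.6 CPM in radial glia and 34.0 CPM in intermediate progenitors, 2 gates with near equal sums of the glutamatergic markers (1347 and 1339 CPM).

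The paralog Rbfox2 rose 2.71-fold (log2 1.44, SE 0.085, adjusted p = 8.0e-12), from 173 to 319 CPM in radial glia to 576 to 683 CPM in neurons. Rbfox3 rose 2.54-fold (log2 1.34, SE 0.13, adjusted p = 1.2e-08), from 22.9 to 61.6 CPM to 75.9 to 104 CPM. The ranges of radial glia and neurons did not overlap for either gene. Rbfox2 in radial glia was 41.3% of its neuronal level (median) and in the non-neural barcodes 214 CPM, 34.5% of it. The corresponding shares of Rbfox3 were 37.2% and 21.6%.

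The Nova pair moved in opposite directions. Nova2 rose 2.60-fold (log2 1.38, SE 0.100, adjusted p = 1.7e-10), from 33.5 to 55.9 CPM in radial glia to 88.1 to 130 CPM in glutamatergic neurons. Nova2 in radial glia was 39.3% of its neuronal level in the median embryo (29.9% to 59.4%) and 33.7% in the non-neural barcodes. Nova1 fell 2.17-fold (log2 −1.12, SE 0.15, adjusted p = 1.7e-06), from 21.9 to 43.6 CPM to 13.2 to 18.1 CPM. Each of the 7 embryos had more Nova1 in radial glia than in neurons, at 137% to 332% of the neuronal level. Nova1 rested on 22 to 52 UMIs per embryo in radial glia and 40 to 84 in neurons.

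The Ptbp pair also divided. Ptbp1, the repressor of neuronal exons, fell 3.59-fold (log2 −1.84, SE 0.13, adjusted p = 9.8e-11). Its level was 82.8, 68.4, 82.7 and 56.4 CPM in radial glia of the mutants 10, 11, 12 and 17 and 95.4, 57.7 and 53.2 CPM in the controls 14, 15 and 16. In neurons the range was 14.4 to 26.8 CPM, below every radial glia value. The non-neural barcodes had 92.3 CPM (95% Poisson interval 61.3 to 133). Ptbp2 rose 1.24-fold (log2 0.31, SE 0.054, adjusted p = 3.7e-05), and its ranges overlapped (293 to 395 CPM in radial glia and 346 to 470 CPM in neurons). Ptbp2 in radial glia was already at 73.7% to 94.9% of its neuronal level. The fold change of Ptbp1 was the larger of the pair, while in pooled level Ptbp1 went from 70.0 to 17.9 CPM and Ptbp2 from 359 to 414 CPM. Ptbp2 in the non-neural barcodes was 43.0% of the neuronal level.

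The Hu genes differed in degree. Elavl3 rose 2.73-fold (log2 1.45, SE 0.094, adjusted p = 3.0e-11), from 132 to 287 CPM in radial glia to 433 to 581 CPM in neurons. Elavl3 in radial glia was 40.9% of its neuronal level in the median embryo (26.5% to 59.2%) and 25.6% in the non-neural barcodes. Elavl2 rose 1.82-fold (log2 0.86, SE 0.077, adjusted p = 4.0e-09) and Elavl4 1.51-fold (log2 0.59, SE 0.075, adjusted p = 6.6e-07). Elavl2 and Elavl4 in radial glia stood at medians of 55.0% and 69.9% of the neuronal level, above the share of the glutamatergic markers in every embryo. In the non-neural barcodes they stood at 34.6% and 25.8%. Their pooled levels were higher in intermediate progenitors (533 and 373 CPM) than in neurons (238 and 140 CPM), so the glutamatergic markers alone do not measure their background.

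**Figure D2:**
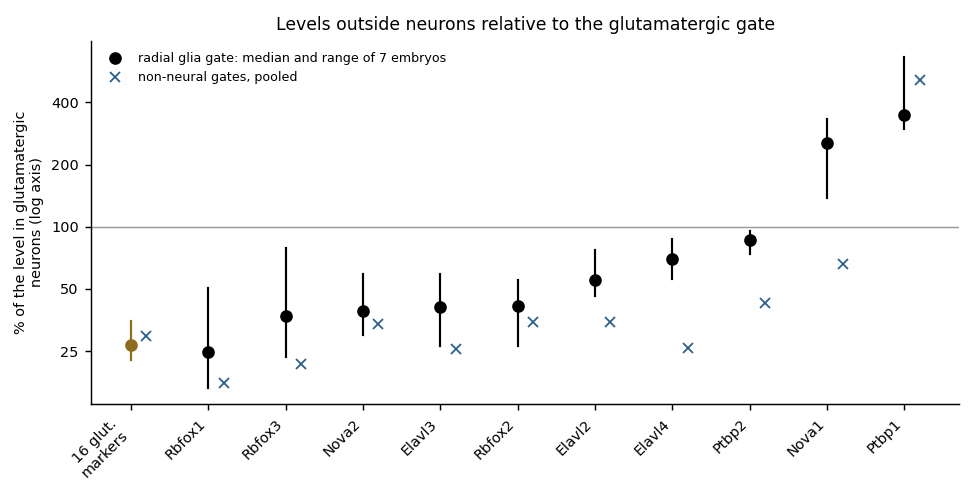
Level in the radial glia gate as a percentage of the level in the glutamatergic gate (log axis), for the sum of the 16 glutamatergic markers and for each member; points are medians and lines the range of 7 embryos, and crosses are the pooled non-neural barcodes. Rbfox1 lies at the share of the glutamatergic markers, Ptbp2 at 85.9%, and Nova1 and Ptbp1 above 100%.

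Other splicing regulators moved in both directions. Of 82 tested in the same fit, from a list of 87 drawn up for this work, 25 rose, 29 fell and 28 did not pass, with a median log2 fold change of −0.06. The strongest rises were those of Celf5 (1.88, SE 0.11, edgeR adjusted p = 5.9e-12), Khdrbs2 (1.84, SE 0.12, adjusted p = 2.3e-11) and Celf6 (1.61, SE 0.15, adjusted p = 1.1e-08). Celf5 and Celf6 are CELF family proteins and Khdrbs2 is the Sam68-like protein SLM1. The strongest falls were those of Rbm20 (−3.80, SE 0.22, adjusted p = 5.3e-12), known for titin splicing in heart, the progenitor protein Msi2 (−2.20, SE 0.083, adjusted p = 9.1e-15) and the muscleblind gene Mbnl2 (−1.64, SE 0.14, adjusted p = 1.9e-09).

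**Figure D3:**
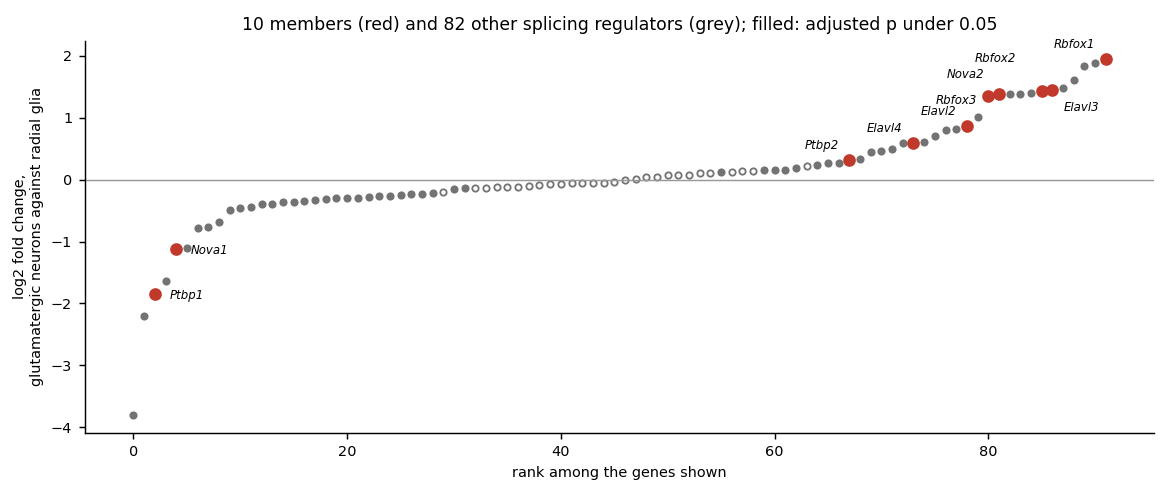
Log2 fold change of glutamatergic neurons against radial glia for the 10 members (red, named) and 82 other splicing regulators (grey), in order of their value; filled points passed an adjusted p of 0.05. Rbfox1 (1.95) is at the upper end and Ptbp1 (−1.84) and Nova1 (−1.12) are near the lower end.

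Intermediate progenitors, the Eomes-positive dividing cells between radial glia and neurons, had a pattern of their own. Their gate did not require Eomes itself, and whether the gated cells were dividing was not measured. Against radial glia, 6 of 10 members rose, 4 did not pass and none fell, where 22.6% of 8077 genes were called. Rbfox3 rose 4.50-fold (log2 2.17, SE 0.18, edgeR adjusted p = 1.4e-16), Elavl2 3.87-fold (log2 1.95, SE 0.10, adjusted p = 2.0e-26) and Elavl4 3.76-fold (log2 1.91, SE 0.13, adjusted p = 5.6e-21). Elavl3, Rbfox2 and Ptbp2 rose by 0.39, 0.30 and 0.27 on the log2 scale (adjusted p = 0.0084, 0.034 and 0.038). The calls of Rbfox2 and Ptbp2 were lost when a single embryo was left out (mutant 10, 11 or 12 or control 14 for both, control 15 for Rbfox2 and control 16 for Ptbp2), and that of Elavl3 with a mitochondrial share of at most 5% (adjusted p = 0.21).

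The high levels of Rbfox3, Elavl2 and Elavl4 in intermediate progenitors were also above those in glutamatergic neurons, in a comparison added after these levels had been seen. In this fit 37.0% of 10044 genes were called, and 4 members were higher and 4 lower in the progenitors. Rbfox3 was 1.73-fold higher than in neurons (log2 0.79, SE 0.14, edgeR adjusted p = 4.6e-07), Elavl2 2.10-fold (log2 1.07, SE 0.094, adjusted p = 1.3e-21) and Elavl4 2.48-fold (log2 1.31, SE 0.11, adjusted p = 8.2e-24). The Rbfox3 level was 164, 174, 112 and 155 CPM in intermediate progenitors of the mutants 10, 11, 12 and 17 and 203, 179 and 179 CPM in the controls 14, 15 and 16, all above the 75.9 to 104 CPM of the neurons. Per embryo it rested on 19 to 36 UMIs.

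Rbfox1, Nova2, Rbfox2 and Elavl3 went the other way in that comparison. Rbfox1 was 6.25-fold lower in intermediate progenitors than in neurons (log2 −2.64, SE 0.19, edgeR adjusted p = 9.8e-28), Nova2 2.32-fold (adjusted p = 2.1e-08), Rbfox2 2.23-fold (adjusted p = 3.2e-22) and Elavl3 2.12-fold (adjusted p = 6.4e-19). Rbfox1 had 1 to 8 UMIs per embryo in intermediate progenitors and a log2 fold change of −0.64 (SE 0.27, adjusted p = 0.079) against radial glia. That difference passed without mutant 11 (log2 −0.87, adjusted p = 0.0231), with all gated classes in 1 fit (adjusted p = 0.0494) and with barcodes of at least 300 genes (adjusted p = 0.0473). Ptbp1 was 3.38-fold higher in the progenitors than in neurons (log2 1.76, SE 0.25, adjusted p = 9.1e-10) and had a log2 fold change of −0.10 (95% interval −0.52 to 0.31) against radial glia. The 16 glutamatergic markers stood at 1339 CPM in this gate, as in radial glia.

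**Figure D4:**
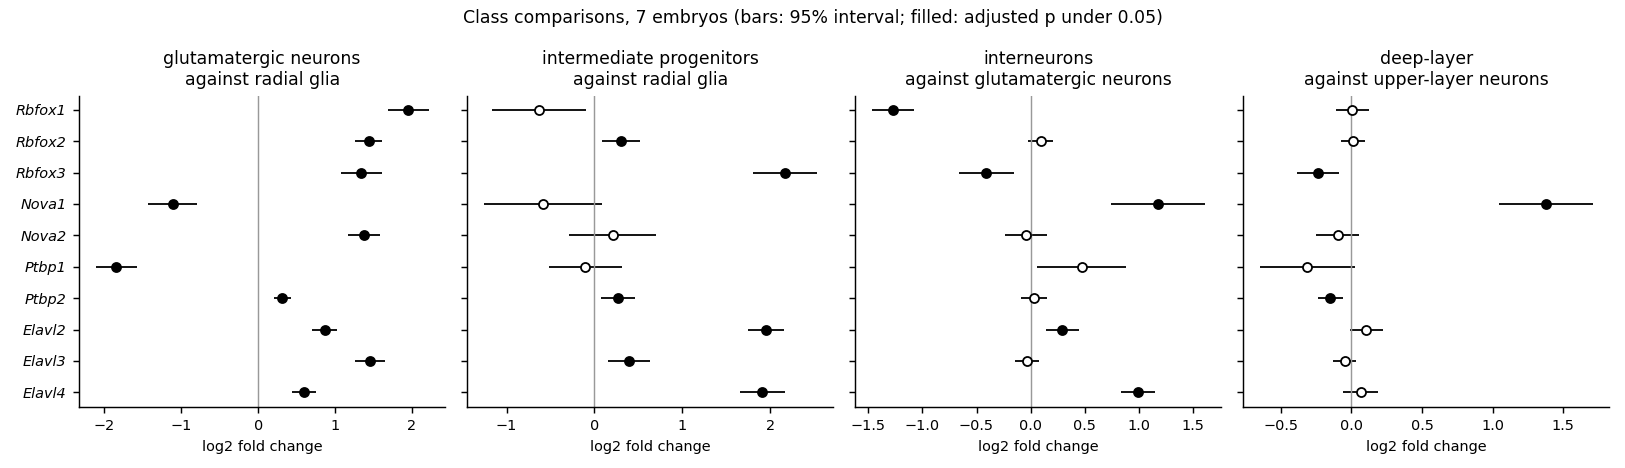
Log2 fold change of each member in 4 class comparisons over the 7 embryos, with 95% intervals; filled points passed an edgeR adjusted p of 0.05. All 10 are filled in the first panel, and Rbfox3, Elavl2 and Elavl4 reach about 2 in the second.

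Cortical interneurons, the GABAergic cells that migrate in from the ventral telencephalon, were set against glutamatergic neurons. Of the 10 members 3 were higher and 2 lower in interneurons, where 32.8% of 10113 genes were called. Rbfox1 was 2.42-fold lower (log2 −1.27, SE 0.094, edgeR adjusted p = 1.1e-12), with 52.7, 61.0, 56.9 and 109 CPM in the mutants 10, 11, 12 and 17 and 105, 119 and 95.3 CPM in the controls 14, 15 and 16. Every interneuron value was below every value of the glutamatergic neurons. The 16 glutamatergic markers summed to 952 to 1719 CPM in the interneuron gate. Rbfox3 was 1.33-fold lower (log2 −0.41, SE 0.12, adjusted p = 0.011), a call that was lost without mutant 10 (adjusted p = 0.057).

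Nova1 was 2.26-fold higher in interneurons (log2 1.18, SE 0.21, edgeR adjusted p = 4.2e-05), from 15.2 to 62.8 CPM and 6 to 34 UMIs per embryo. Elavl4 was 1.98-fold higher (log2 0.99, SE 0.077, adjusted p = 3.0e-12) and Elavl2 1.22-fold (log2 0.29, SE 0.075, adjusted p = 0.0026). The 95% intervals of the log2 difference were −0.021 to 0.20 for Rbfox2, −0.24 to 0.15 for Nova2, −0.085 to 0.15 for Ptbp2 and −0.14 to 0.075 for Elavl3. Ptbp1 had a wide interval, 0.058 to 0.88, around a log2 difference of 0.47 (adjusted p = 0.074), and it passed when mutant 11 was left out (adjusted p = 0.0357).

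Between layers, Nova1 had the largest difference of the 10 members. In deep-layer against upper-layer neurons, 1 member was higher and 2 were lower, where 28.3% of 9942 genes were called. Nova1 was 2.60-fold higher in deep layers (log2 1.38, SE 0.16, edgeR adjusted p = 6.6e-09), with 19.5 to 30.8 CPM there and 8.4 to 11.3 CPM in upper layers. Rbfox3 was 1.18-fold lower (log2 −0.24, SE 0.072, adjusted p = 0.011; adjusted p = 0.099 with DESeq2) and Ptbp2 1.11-fold (log2 −0.15, SE 0.043, adjusted p = 0.0072). For Rbfox1 the log2 difference was 0.007 with a 95% interval of −0.11 to 0.12.

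Cajal-Retzius cells, the early reelin-producing neurons of the marginal zone, had 8.7 to 27.9 CPM of Rbfox1 from 1 to 4 UMIs per embryo, and 264 to 502 CPM of Elavl4 from 22 to 60. By its median level Rbfox1 was highest in the 3 glutamatergic gates, whose ranges over embryos overlapped, followed by interneurons, then intermediate progenitors and radial glia, and last Cajal-Retzius cells. Intermediate progenitors and radial glia overlapped and had no fixed order, with medians of 49.0 and 41.0 CPM and means of 35.9 and 54.5 CPM. The interneuron range lay below all 3 glutamatergic ranges and overlapped those of intermediate progenitors and radial glia, and the Cajal-Retzius range lay below that of radial glia.

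Over the means of the 7 gates, the 5 genes of 10947 with the pattern most like that of Rbfox1 (Pearson r of log2 CPM) were Rfxap (0.997), Drosha (0.996), Kcnh3 (0.990), Eri3 (0.987) and Arg2 (0.985). Among the other members, Nova2 (0.809) and Rbfox2 (0.727) were the most alike and Elavl4 (−0.670) the least. Picking the highest of 10947 values of r over 7 points each favours values near 1, so their height is no evidence of a shared pattern. The gates share embryos and libraries, and r takes no account of the size of a change: Rfxap moved between 5.44 and 5.90 on the log2 CPM scale over the 7 gates. In Cajal-Retzius cells Kcnh3 stood at 1, the floor set by the 2 CPM added before the log, and Arg2 at 1.41.

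The comparison of mutants with controls asked whether Rbfox1 alone was lower when Ash1l was targeted. In glutamatergic neurons Rbfox1 stood at 169, 172, 153 and 179 CPM in the mutants 10, 11, 12 and 17 and at 246, 244 and 233 CPM in the controls 14, 15 and 16. All 4 mutants lay below all 3 controls, with means of 168 ± 11.1 (SD, n = 4) and 241 ± 6.95 CPM (SD, n = 3), 1.43-fold apart. The fitted log2 difference was −0.52 (SE 0.10). The layer gates are parts of this same gate, and Rbfox1 was singled out in upper-layer neurons too, so nothing further is read from them. Mutants were at 162 to 175 and controls at 241 to 263 CPM in upper-layer neurons. In deep-layer neurons they were at 149 to 204 and 214 to 277 CPM. In those without a layer they were at 129 to 175 and 179 to 230 CPM.

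Rbfox1 was not the sole member with groups apart. Elavl3 stood at 498, 448, 433 and 486 CPM in the mutants 10, 11, 12 and 17 and at 563, 509 and 581 CPM in the controls 14, 15 and 16. Again every mutant was below every control, though mutant 10 and control 15 were close, and the means were 1.18-fold apart (log2 difference −0.24, SE 0.11). Of all genes with at least 70 UMIs, 5.51% had all mutants below all controls in the glutamatergic gate, and nothing is read from the 2 of 10 members, since they were chosen with this contrast known. The layer gates are parts of the glutamatergic gate and give no separate evidence. In them the Elavl3 groups were apart in upper-layer (439 to 508 against 525 to 577 CPM) and layer-free neurons (397 to 458 against 472 to 553 CPM). In deep-layer neurons (422 to 495 against 496 to 610 CPM) they all but met, at 495.0 and 495.8 CPM. The share of genes with such groups was 4.82% in the upper-layer gate and 4.92% in the deep-layer gate, each with the same 2 members. In the layer-free gate it was 4.11%, and Elavl2 joined Rbfox1 and Elavl3 there (201 to 268 against 269 to 336 CPM). The Elavl2 groups all but met, at 267.9 and 268.8 CPM.

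**Figure D5:**
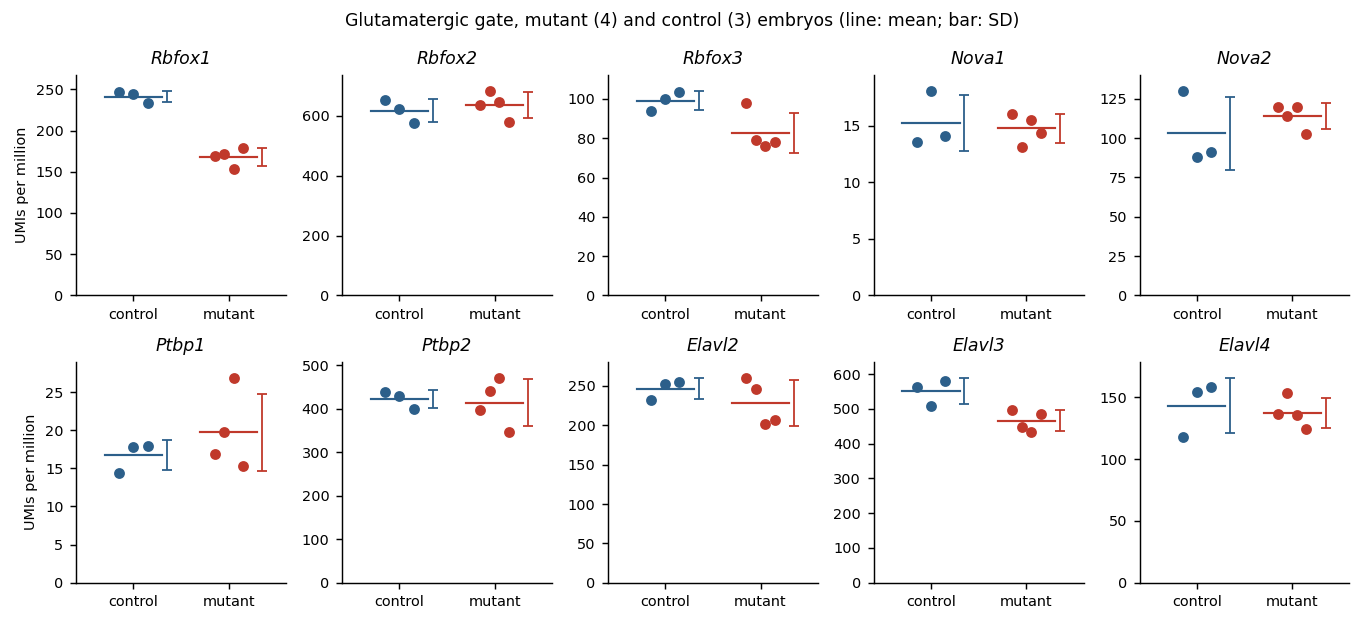
Level of each member (CPM, y axes from 0) in the glutamatergic gate of 3 control and 4 mutant embryos, with the mean (line) and SD (bar). The mutants lie below all controls for Rbfox1 (153 to 179 against 233 to 246) and Elavl3 (433 to 498 against 509 to 581), and the groups overlap for the other 8.

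The other 8 members overlapped between genotypes in glutamatergic neurons. Rbfox3 was at 97.8, 79.3, 75.9 and 78.1 CPM in the mutants 10, 11, 12 and 17 and at 93.8, 100.0 and 104 CPM in the controls 14, 15 and 16, where mutant 10 reached into the controls (log2 difference −0.26, SE 0.12). Rbfox2 ranged from 578 to 683 CPM in mutants and 576 to 653 CPM in controls (0.037, SE 0.11), and Ptbp2 from 346 to 470 and 399 to 439 CPM (−0.038, SE 0.12). Elavl2 and Elavl4 had log2 differences of −0.11 (SE 0.12) and −0.064 (SE 0.12), and Nova1 and Nova2 of −0.043 (SE 0.19) and 0.14 (SE 0.14). Ptbp1 was at 15.4 to 26.8 CPM in mutants and 14.4 to 17.9 CPM in controls (0.22, SE 0.20).

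In the fit over all genes, edgeR called 5 of 11690 genes (0.0428%) in the glutamatergic gate and none of the 10 members. DESeq2, run as an alternative, called 31 genes with Rbfox1 among them. Since Rbfox1 was chosen on this contrast, nothing is read from either count. The median log2 difference of the members was −0.054, that of 81 other splicing regulators −0.082 with 0 called and 54 below 0, and that of all genes −0.002.

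Of the neuronal lists in the same gate, 0 of 12 immature-neuron genes and 0 of 16 mature-neuron genes were called by edgeR, and 9 and 11 of them had values below 0. The sum of 12 immature-neuron genes was 9897 to 10684 CPM in mutants and 11072 to 12157 CPM in controls, and the sum of 16 mature-neuron genes was 2779 to 3298 and 3384 to 3739 CPM. In both sums every mutant was below every control, while the 16 gating markers overlapped (4697 to 5118 and 4871 to 4947 CPM). Dcx, a microtubule protein of migrating neurons, was at 1532 to 1729 CPM in mutants and 1771 to 1863 CPM in controls, and Syt1, a synaptic vesicle calcium sensor, at 107 to 141 and 163 to 215 CPM. Sox11 and Snap25 overlapped between the groups. Deep-layer neurons made up 22.3% ± 1.55 (SD, n = 4) of the glutamatergic gate in mutants and 24.97% ± 1.53 (SD, n = 3) in controls. All 4 mutants (20.2% to 23.7%) lay below all 3 controls (24.0% to 26.7%). The exact two-sided permutation p was 0.0571, the smallest this test can give here (adjusted p = 0.343 over 8 measures). The 8 oligodendrocyte-precursor markers, 1 of them at 0, summed to 7.85 to 13.4 CPM in mutants and 14.6 to 27.2 CPM in controls. Their part in the Rbfox1 and Elavl3 differences was not tested.

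Over all kept barcodes, where fewer cells of a type and less RNA per cell cannot be told apart, 3 members had all mutants below all controls, against 4.66% of genes. Rbfox1 was at 119, 125, 102 and 153 CPM in the mutants 10, 11, 12 and 17 and at 191, 188 and 187 CPM in the controls 14, 15 and 16 (log2 difference −0.61, SE 0.13). Elavl3 (364 to 441 against 447 to 507 CPM) and Rbfox3 (63.5 to 80.5 against 86.4 to 93.1 CPM) were the others. edgeR called 3 of 12893 genes (0.0233%) and no member, and DESeq2 called 25 genes with Rbfox1 among them, from which nothing is read for the same reason.

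In interneurons the Rbfox1 groups overlapped through mutant 17. Mutants 10, 11 and 12 lay at 52.7 to 61.0 CPM and below the controls (95.3 to 119 CPM), and mutant 17 at 109 CPM within them (log2 difference −0.68, SE 0.24). The sum of the 16 glutamatergic markers in this gate was 1133, 1719, 952 and 1593 CPM in the mutants 10, 11, 12 and 17 and 1388, 1559 and 1448 CPM in the controls 14, 15 and 16. No member had groups apart here. edgeR called 0 of 7609 genes (0%), with 523 at an unadjusted p under 0.05, and DESeq2 called 1. The log2 difference of Rbfox1 in glutamatergic neurons minus that in interneurons was 0.18 (SE 0.21). That interaction was called for 2 of 10916 genes (0.0183%) and for no member. Rbfox1 was chosen on its glutamatergic difference, so nothing is read from its value or from its missing call.

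Among dorsal progenitors (radial glia and intermediate progenitors together), edgeR called 2 of 10336 genes (0.0193%) and no member. Rbfox1 overlapped, at 27.8, 39.1, 35.1 and 85.7 CPM in the mutants 10, 11, 12 and 17 and 36.1, 66.9 and 74.6 CPM in the controls 14, 15 and 16. Its log2 difference of −0.36 (SE 0.30) ranged from −0.83 to −0.17 over 15 alternatives. In intermediate progenitors alone, Rbfox3 had all mutants below all controls (112 to 174 against 179 to 203 CPM), where 3.83% of genes did. Elavl4 did so in Cajal-Retzius cells (264 to 373 against 433 to 502 CPM), where 3.97% of genes with at least 70 UMIs did. Nova1 did so there too (0 to 20.9 against 25.1 to 46.5 CPM), but from 0 to 5 UMIs per embryo and below that limit of 70 UMIs.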

How the data were processed

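Seq-Well libraries of 7 embryos (4 mutants, 3 controls) were deposited as tables of UMI counts per gene and barcode. The authors aligned with STAR to mm10, per the submitters' processing notes. No source used here gives the annotation or says whether counting used strand. Barcodes with at least 500 genes and at most 10% mitochondrial UMIs were kept and gated by marker genes (at least 3, and for layers at least 2). No doublet caller was run, so barcodes of mixed type remain. Library totals were 7083225 to 11859209 UMIs. Poisson intervals of pooled levels cover counting error only, and 95% intervals of log2 differences come from the fits over embryos. No pair of libraries was a duplicate (chi-square per gene 4.69 to 23.9).

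UMIs were summed per embryo and gate and tested with edgeR 4.0.16 in R 4.3.3 (quasi-likelihood, TMM, filterByExpr, Benjamini-Hochberg over all genes tested). The embryo was a covariate between classes. Each SE is the absolute log2 fold change divided by the square root of the F statistic of its test. The fit was tested on simulated data. Alternatives were DESeq2 1.42.0, other size factors, no filter, other barcode and gate limits, and each embryo left out. The text names all 10 members, the 3 strongest rises and falls among other splicing regulators, the 5 genes most like Rbfox1 over gates, Ash1l, and Dcx, Sox11, Snap25 and Syt1. The members and lists were chosen with earlier results of these data known. The comparison of intermediate progenitors with glutamatergic neurons was added after seeing the data.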

Additional observations from a re-analysis of the deposited data

Results flagged for a closer look

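Among 80 groups of 4 mutants, 6 had an embryo far from the other 3 by Dixon's test, where chance gives about 1 in 20. In 5 of the 6 it was mutant 17. All groups come from the same 4 libraries and some gates are parts of others, so the groups are not independent. Nothing is read from the count or from the return of 1 embryo. Rbfox1 in mutant 17 was at 108.5 CPM in interneurons, where the other mutants were at 52.7 to 61.0 CPM, and at 90.3 CPM in radial glia, where they were at 30.9 to 37.7 CPM. Rbfox3 in radial glia of mutant 17 was at 61.6 CPM. In glutamatergic neurons without a layer, mutant 17 was lowest for Rbfox2 (546.7 CPM) and Ptbp1 (16.0 CPM). Rbfox3 in glutamatergic neurons of mutant 10 was at 97.8 CPM, where the other mutants were at 75.9 to 79.3 CPM.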

How the results depend on the processing

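No paired analysis was possible because no replicate number occurs in both groups. Between classes, 746 of 799 alternative values of the members kept direction and side of the threshold, 31 lost and 6 gained a call, and 16 changed sign. None of those 16 was called: without mutant 12, Nova2 (−0.025) and Ptbp1 (0.0046) in intermediate progenitors against radial glia, Nova2 (0.0058) in interneurons against glutamatergic neurons and Rbfox2 (−0.022) in deep against upper layers; without control 14, Ptbp1 (0.017) in intermediate progenitors and Rbfox1 (−0.026) between layers; without mutant 17, Rbfox1 (−0.028) between layers. Leaving out 1 embryo at a time, these values ranged from −0.025 to 0.36 (Nova2) and −0.24 to 0.017 (Ptbp1) in intermediate progenitors against radial glia, −0.084 to 0.0058 (Nova2) in interneurons, and −0.028 to 0.080 (Rbfox1) and −0.022 to 0.048 (Rbfox2) between layers. With no filter the values were −0.042 (Ptbp2, interneurons), −0.026 (Rbfox1, layers) and −0.022 (Rbfox2, layers). With 1 marker more they were 0.044 (Ptbp1, intermediate progenitors) and −0.012 (Rbfox1, layers). With at most 5% mitochondrial UMIs they were −0.00071 (Rbfox1, layers) and −0.019 (Nova1, intermediate progenitors against neurons). Without barcodes above 3 times the median UMIs they were −0.011 (Ptbp2, interneurons) and 0.063 (Ptbp2, intermediate progenitors against neurons).

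Genes called between genotypes numbered 3 over all barcodes (25 with DESeq2, 165 with no filter, 5 at 5% mitochondrial UMIs, 3 to 26 leaving out 1 embryo), 5 in glutamatergic neurons (31, 154, 8 and 3 to 16), 0 in interneurons (1 with DESeq2, 15 with no filter, 0 to 3) and 2 in dorsal progenitors (40 with no filter, 1 at 300 genes, 0 at 5% mitochondrial UMIs, 0 without barcodes above 3 times the median, 0 to 5). The interaction had 2 (1 with size factors, 0 with DESeq2, 12 with no filter, 4 at 300 genes, 5 at 5% mitochondrial UMIs, 1 with 1 marker more, 0 to 4). Between classes, 1823 fell to 1076 at 5% mitochondrial UMIs (intermediate progenitors against radial glia), and 2818 to 1640 with DESeq2 and 1852 without barcodes above 3 times the median (layers). The cause was not tested. The log2 difference of Rbfox1 was below 0 in all 15 alternatives in glutamatergic neurons (−0.58 to −0.47) and all 15 in interneurons (−0.90 to −0.50). Since Rbfox1 was chosen for its lower level in mutants of these same data, nothing is read from these signs. The interaction of Rbfox1 became −0.046 without barcodes above 3 times the median. Depth limits Nova1 and Ptbp1 and every member in intermediate progenitors and Cajal-Retzius cells.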
